A study of Mus musculus with 9 samples.

Results

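Windows of 1 kb on the mouse autosomes that stayed methylated in primordial germ cells of both genotypes are described here. A window was included when at least 5 of its CpG sites were listed in both genotypes, when it held at least 20 reads in each, and when 50% or more of the reads over its CpG sites were methylated in each. The windows were thus selected on the measured levels of both pools, and the rule gave 806 of 363952 tested autosomal windows, a share of 0.221% (Wilson 95% interval 0.207 to 0.237%). They are called retained windows below. Beside them, 1200 windows were at 50% or more in the Tet1-null cells only, 1272 in the WT cells only, and 360674 in neither. The X chromosome was kept apart, and there 70 of 8121 tested windows met the same thresholds, a share of 0.862% (0.683 to 1.09%).

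The cells were primordial germ cells of female C57BL/6 embryos at embryonic day 13.5, with 5 libraries of Tet1 -/- genotype (Tet1-null) made from 1400 to 4700 cells and 4 WT libraries made from 1575 to 5251 cells. Methylation was read by bisulfite sequencing of the whole genome. The deposited tables hold 1 pool of libraries per genotype, so no value below has a replicate check, and every difference is between 2 pools. The Tet1-null pool had 46716079 reads over 16372728 CpG sites and the WT pool 30386353 reads over 13730600 sites, and 4.08% and 3.41% of autosomal reads were methylated. Bisulfite kit and sequencing run varied among the libraries, and in pooled tables they and the genotype cannot be told apart. The labels do not say whether the libraries came from separate embryos. The identity of the cells and the loss of Tet1 were not checked, since these tables hold methylation only.

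Primordial germ cells give rise to eggs and sperm. On their way to and in the embryonic gonad they erase nearly all DNA methylation, parental imprints included. Some retrotransposons, the intracisternal A particles among them, are known to resist this erasure. The enzyme made from Tet1 oxidises 5-methylcytosine, and bisulfite sequencing reads the first oxidation product, 5-hydroxymethylcytosine, as methylated. CpG sites are the main place of methylation in mammals. Copies of a repeated element can be nearly identical, and then short reads can be assigned to a copy only where it differs from the others.

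Most retained windows carried a CpG layout that recurs elsewhere in the genome. The layout was read from the CpG positions alone, as the 5 distances between 6 consecutive listed CpGs spanning 60 to 500 bases, in either direction. Identical sets of distances, here called spacing patterns, were counted over all autosomes. The 140 patterns held by at least 5 retained windows joined into 27 families, numbered from 1 by how many retained windows hold them. No repeat annotation was used, so the families carry no repeat name. Families 1, 4, 5, 6, 7 and 21 also occurred in promoter sequences of RefSeq genes (build GRCm38.p6, 250 bases before to 50 after the start), in 15, 4, 3, 1, 1 and 1 of 32851 promoters. The sequences below show what the layouts look like in bases, since no genome of the tables' build was used here. They read from 5′ to 3′ on the strand given, with coordinates of GRCm38.p6, and capitals mark the CpGs that belong to a pattern of the family.
Gm14149, family 1, chr2:151204958-151205159, plus strand: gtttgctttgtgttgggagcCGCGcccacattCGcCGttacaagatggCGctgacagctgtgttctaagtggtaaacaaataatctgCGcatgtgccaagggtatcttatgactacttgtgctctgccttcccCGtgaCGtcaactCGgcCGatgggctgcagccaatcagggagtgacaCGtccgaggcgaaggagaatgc
Gm35195, family 1, chr6:59697917-59698037, plus strand: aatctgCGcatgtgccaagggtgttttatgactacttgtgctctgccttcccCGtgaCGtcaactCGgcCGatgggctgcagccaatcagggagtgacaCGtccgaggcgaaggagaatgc
Gm29709, family 1, chr12:85407854-85408153, plus strand: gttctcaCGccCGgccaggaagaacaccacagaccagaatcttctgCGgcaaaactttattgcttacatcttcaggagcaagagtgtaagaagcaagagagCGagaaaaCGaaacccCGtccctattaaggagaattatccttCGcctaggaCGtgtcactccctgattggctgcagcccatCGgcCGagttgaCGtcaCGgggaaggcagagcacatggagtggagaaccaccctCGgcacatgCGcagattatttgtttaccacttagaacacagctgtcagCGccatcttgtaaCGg
Gm52432, family 1, chrX:65707251-65707444, plus strand: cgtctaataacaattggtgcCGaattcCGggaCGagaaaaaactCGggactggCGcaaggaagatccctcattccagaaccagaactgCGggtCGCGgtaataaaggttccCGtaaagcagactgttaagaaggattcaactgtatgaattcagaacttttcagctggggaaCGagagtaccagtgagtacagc
Gm20110, family 4, chr10:99608999-99609209, plus strand: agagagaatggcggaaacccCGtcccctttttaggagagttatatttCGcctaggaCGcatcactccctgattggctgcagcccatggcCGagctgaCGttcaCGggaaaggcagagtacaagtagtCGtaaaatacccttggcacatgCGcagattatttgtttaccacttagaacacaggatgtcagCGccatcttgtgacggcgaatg
4930481A15Rik, family 4, chr19:5406594-5406832, plus strand: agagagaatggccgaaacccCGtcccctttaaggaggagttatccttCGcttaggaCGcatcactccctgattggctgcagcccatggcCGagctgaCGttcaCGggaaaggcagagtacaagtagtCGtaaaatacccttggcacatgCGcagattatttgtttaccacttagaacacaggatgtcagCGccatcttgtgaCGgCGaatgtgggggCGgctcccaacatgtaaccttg
A230004M16Rik, family 5, chr11:41710246-41710373, plus strand: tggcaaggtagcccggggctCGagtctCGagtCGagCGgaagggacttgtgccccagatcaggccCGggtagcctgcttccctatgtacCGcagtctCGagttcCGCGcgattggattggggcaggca
Gm5636, family 6, chrX:47436492-47436610, minus strand: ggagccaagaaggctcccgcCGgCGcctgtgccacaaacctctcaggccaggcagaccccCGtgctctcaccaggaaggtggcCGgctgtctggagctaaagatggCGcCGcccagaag

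Identical runs were sought over the full promoters of 300 bases, of which the lines above print the stretch around the pattern, so a run can go past what is shown. The promoters of Gm14149 and Gm35195, on chromosomes 2 and 6, shared a run of 121 bases. Gm14149 shared 68 bases with Gm29709 on chromosome 12, read on the opposite strand. Both family 4 promoters printed above, on chromosomes 10 and 19, shared 166 bases with each other, and 48 bases with Gm14149 on the opposite strand. The other family 4 promoters, Gm52439 and Gm52417 on the X, also held family 1 patterns. They shared 8 and 10 bases with Gm14149, and 92 and 139 with Gm52432. Gm14149 shared 15 bases with Gm52432 of its own family. The Gm29709 promoter shared 237 bases with a further family 1 promoter, Gm46490 on chromosome 14, and 73 bases on the opposite strand with Gm52432 on the X. The family 6 promoter shared at most 11 bases with Gm52432 of family 1 and 10 with Gm14149. Some promoters of families 1 and 4 thus shared bases, although their spacing patterns were joined in separate families. Promoters of a single family could also share few bases. These genes carry provisional symbols, and no function is given for them here.

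Of the 806 retained windows, 633 (78.5%) held a spacing pattern found at 5 or more autosomal places. Among tested windows not retained in both pools, weighted to the same CpG numbers, 7.86% did. Windows at 50% or more in a single pool lay between, at 65.6% for the Tet1-null pool only and 62.2% for the WT pool only. The contrast held at higher copy numbers, since patterns at 100 or more places were held by 29.3% of retained windows and by 2.55% of windows of equal CpG number, and patterns at 300 or more places by 14.8% and 1.47%. The most frequent pattern of a retained window had a median of 34 places. A recurring pattern did not mark a window as retained, because 4.32% of the 14667 tested windows that held a pattern at 5 or more places were retained. These shares describe windows the rule had chosen and carry no test. The patterns, the families and the gene start placement below were chosen after the data were seen.

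**Figure D1:**
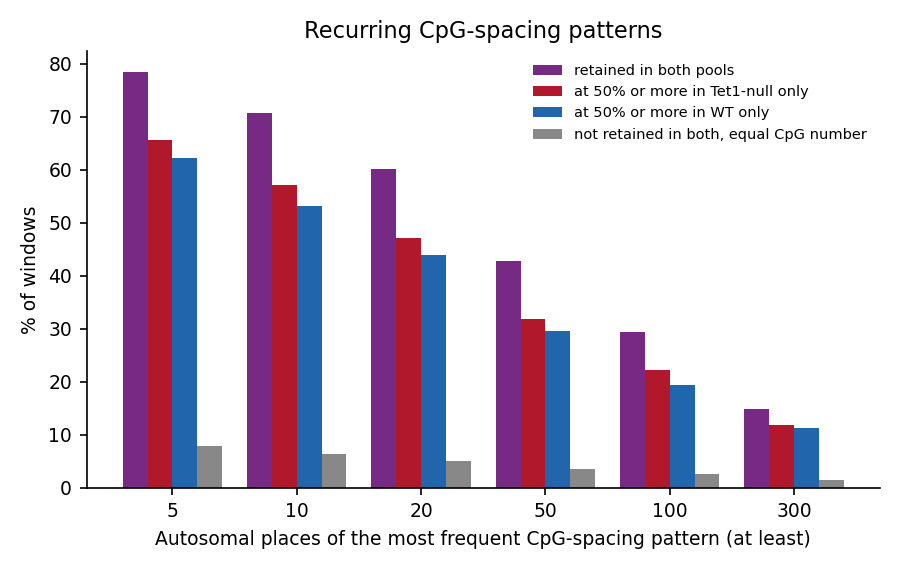
Percent of 1 kb windows (vertical axis) whose most frequent CpG-spacing pattern had at least the number of autosomal places on the horizontal axis, for windows retained in both pools, at 50% or more in 1 pool only, and not retained in both (weighted to equal CpG number). At 5 or more places the bars stand at 78.5% for retained windows, 65.6% and 62.2% for windows of a single pool, and 7.86% for equal CpG number.

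The families could be measured outside the windows that defined them. Windows with too few sites or reads to be tested were not used by the rule, nor was the X. At 2727 places of family patterns in such autosomal windows, 44.4% of 44185 Tet1-null reads and 44.3% of 17544 WT reads were methylated, a difference of 0.0348 points (Newcombe 95% interval -0.835 to 0.903). All untested autosomal windows together stood at 3.86% in the Tet1-null pool and 3.19% in the WT pool. At 447 places on the X the family level was 42.9% in the Tet1-null pool and 43.4% in the WT pool, against 6.08% and 5.70% over the whole X. The level was nearly as high away from retained windows, at 43.7% and 44.0% over the 2569 autosomal places more than 10 kb from one. These intervals cover counting error only, because reads amplified by PCR without molecular identifiers are not independent molecules and neighbouring sites share reads.

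Not all recurring patterns were at such levels. The 137 patterns that occurred at 50 or more places and were held by no retained window were at 9.09% in the Tet1-null pool and 7.71% in the WT pool in untested autosomal windows, or 1.38 points more (1.06 to 1.69). On the X they were at 13.8% and 13.9%. Both sets of patterns were sorted by whether retained windows hold them. Recurring patterns held by some retained windows, but fewer than 5, are in neither set. The contrast therefore cannot show what level goes with recurrence as such. Taken place by place, with at least 5 reads in each pool, 278 of 1018 family places (27.3%) reached 50% in both pools, against 18 of 3065 places (0.587%) of the other patterns. Family places were covered less deeply, with 2.39 reads per listed site over both pools against 2.98. In tested windows, 18.2% of 2025 family places lay in retained windows, so most lay in windows below the threshold in at least 1 pool. This count goes by the level of the whole window, not of the place within it.

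Family 1 was the largest, with 125 retained windows on 19 autosomes and 1542 autosomal places. Its leading pattern has CpG distances of 2, 10, 3, 13 and 39 bases, which can be followed near the 5′ end of the Gm14149 sequence above. In untested autosomal windows it stood at 53.0% in the Tet1-null pool (52.1 to 53.8%) and 53.5% in the WT pool (52.2 to 54.8%), and on the X at 46.5% and 49.4%. Family 2, in 56 retained windows with distances of 3, 21, 14, 7 and 16, was at 52.0% in both pools, and at 56.0% and 53.3% on the X. Family 3, in 37 retained windows with a median of 40 CpGs, was at 45.4% in the Tet1-null pool and 48% in the WT pool. Family 6, in 21 retained windows, was at 54.7% and 52.1%, and families 8 and 9 lay between 52.6% and 55.7% in both pools. On the X family 6 was at 53.2% in the Tet1-null pool and 61.8% in the WT pool (-8.67 points, -16.6 to -0.437). Family 8 was there at 40.8% of 103 Tet1-null reads and 57.7% of 78 WT reads (-16.9 points, -30.6 to -2.23). In all other families with enough reads on the X, the interval of the difference spanned both signs.

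Some families differed between the pools or stood lower. Family 5, with 26 retained windows but 1462 autosomal places, was at 33.7% in the Tet1-null pool and 29.4% in the WT pool, or 4.29 points more (2.90 to 5.67). On the X it was at 37.5% and 36.6%, or 0.964 points more (-1.44 to 3.34). Family 4 was lower in the Tet1-null pool, at 45.9% against 52.4% (difference -6.48 points, -10.5 to -2.44), while on the X it was at 46.6% and 38.9% (7.69 points, -3.18 to 18.1). Family 7 was at 68.8% in the Tet1-null pool and 58.2% in the WT pool (10.5 points, 4.63 to 16.5), and family 12 at 61.1% and 45.7% (15.4 points, 6.24 to 24.4). Family 12 rested on 440 Tet1-null and 151 WT reads. Families 7 and 12 are not unlike layouts. The leading patterns of families 7, 9, 12, 18 and 19 all hold the distances 2, 8, 4 and 35 in a row. Family 9 was at 52.6% in the Tet1-null pool and 55.0% in the WT pool (-2.48 points, -8.83 to 3.96). Family 19 was at 66.8% and 58.9% (7.89 points, -2.24 to 18.1), and family 18 had too few reads. Family 17 was the lowest with enough reads, at 17.5% and 17.6%. With 21 families measured this way, no adjustment was made for their number, and no replicate spread stands behind any of these intervals.

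**Figure D2:**
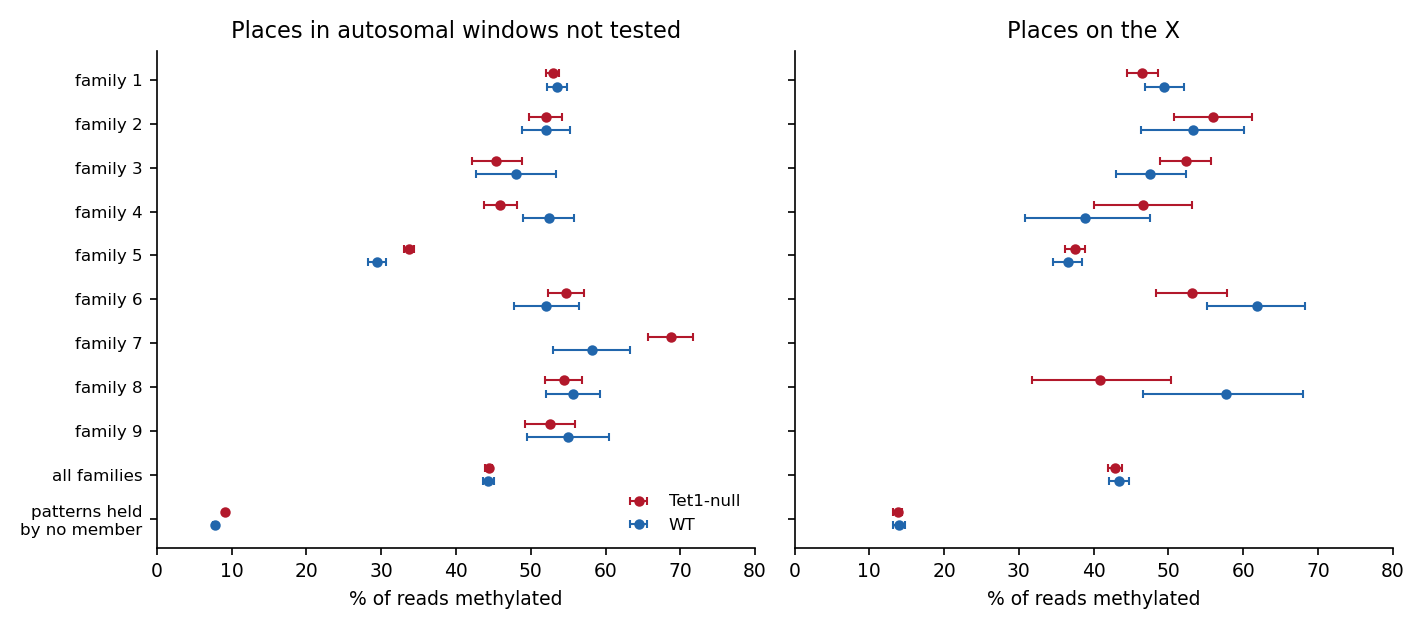
Percent of reads methylated (horizontal axes) at places holding the patterns of families 1 to 9, of all 27 families, and of recurring patterns held by no retained window, in autosomal windows not tested (left) and on the X (right), with Wilson 95% intervals for the Tet1-null and WT pools. All families together stand at 44.4% and 44.3% on the left and 42.9% and 43.4% on the right, above the other recurring patterns at 9.09% and 7.71%, and 13.8% and 13.9%. Values with under 50 reads in either pool are not drawn.

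A few promoters that hold a family pattern could be placed on the tables by their own CpG spacing, which gives their level in these cells. Over the Gm35195 promoter 10 of 11 reads were methylated in the Tet1-null pool and 9 of 11 in the WT pool. Over the Gm20110 promoter 61 of 121 reads (50.4%) were methylated in the Tet1-null pool and 33 of 103 (32.0%) in the WT pool. The promoter of 4930481A15Rik had 15 of 57 and 2 of 7. The promoter of LOC115487747, a family 1 layout on chromosome 11, had 39 of 52 in the Tet1-null pool and 3 of 24 in the WT pool, and that of Gm46244, of family 21 on chromosome 1, had 14 of 37 and 3 of 23. These 5 promoters belong to families 1, 4 and 21 and differ in their full spacing, and several rest on few reads. Gm35195 alone among them was at 50% or more in both pools.

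The retained windows themselves were intermediate rather than fully methylated. Summed over all of them, 60.5% of 44442 Tet1-null reads and 61.7% of 30508 WT reads were methylated, where windows of equal CpG number were at 5.41% and 4.57%. The threshold fixes these levels from below, so they are given as a description. The median window was at 58.6% in the Tet1-null pool and 60% in the WT pool. Both levels were at 60% or more in 203 windows, at 75% or more in 16 and at 90% or more in 1. At sites with 5 or more reads in retained windows, 72.8% of 2191 Tet1-null sites and 71.5% of 870 WT sites were neither at 0% nor at 100%, and 20.8% and 23.1% were at 100%. Coverage per listed CpG was 3.82 reads over both pools, against 3.89 in windows of equal CpG number. The median retained window held 46 Tet1-null and 33 WT reads, against 36 and 27 in all tested windows.

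Because these reads chose the windows, a difference between the pools inside them is a description only. Asking for 50% or more in both pools limits how far apart the levels can lie. How far it shifts each pool, at their unlike depths, was not tested. The Tet1-null level minus the WT level was -1.24 points, and -1.49 points without the 1 retained window deeper than 20 times the median. The Tet1-null level was the higher in 355 windows, the lower in 438 and equal in 13. Fisher's exact test on the summed reads, two-sided, with Benjamini-Hochberg adjustment over all tested autosomal windows, compares these 2 pools and not the genotypes. With a call set at 20 points or more and an adjusted p under 0.05, it called 0.158% of tested windows (0.0975% with the Tet1-null pool higher, 0.0604% with it lower) and 0 of the retained windows. Requiring 50% in both pools leaves at most 50 points between them, so neither this count nor those that follow tell how the pools differ. At an unadjusted p under 0.05, the Tet1-null level was the higher in 23 retained windows and the lower in 31, 6.70% of them in all, against 2.55% and 1.86% of all tested windows.

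**Figure D3:**
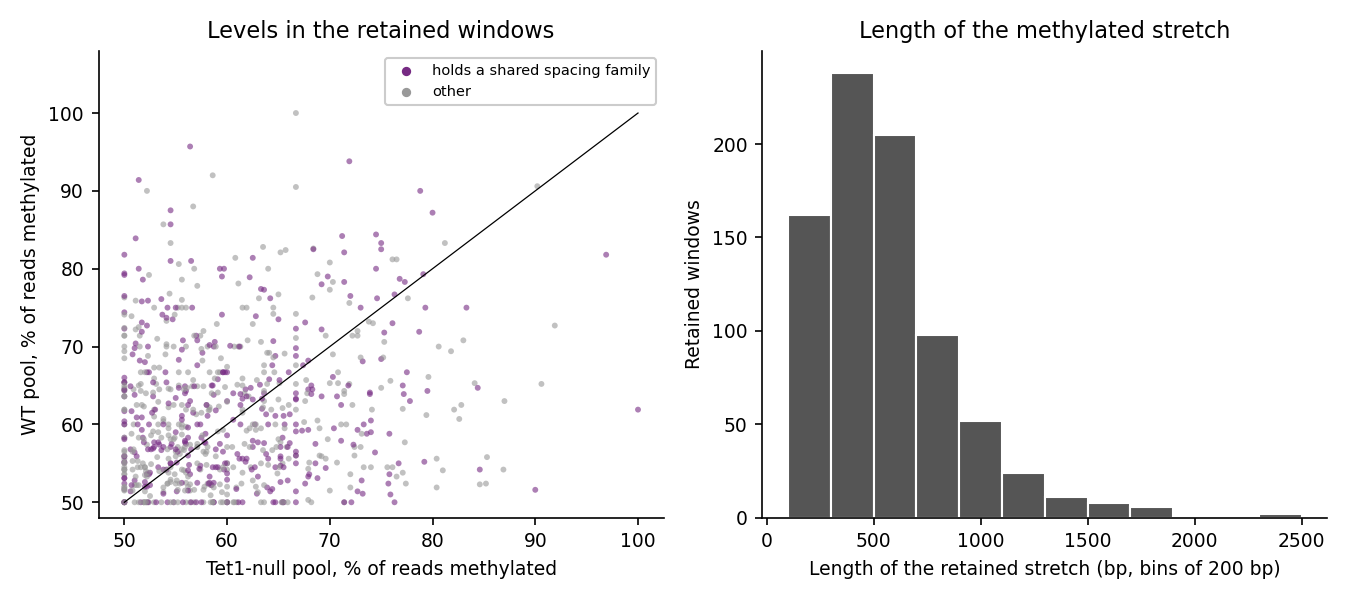
Left, percent of reads methylated in each of the 806 retained windows in the Tet1-null pool (horizontal) and the WT pool (vertical), coloured by whether the window holds a spacing family, with the line of equal levels. Right, number of retained windows by length of the methylated stretch around them in bp, of which 103 reach 1000 bp or more.

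Retained windows had more CpGs than most tested windows, and were nearly absent from the densest class. The median was 24 listed CpGs per kb, with quartiles of 18 and 29, where all tested windows had a median of 14. The share of tested windows that were retained was 0.0385% at 5 to 9 CpGs and 0.0528% at 10 to 14, and 0.166% at 15 to 19. It was 0.685% at 20 to 29, peaked at 1.49% at 30 to 39 CpGs (151 of 10102 windows), and was 0.507% at 40 to 59. At 60 or more CpGs 1 of 4289 windows was retained (0.0233%). The single window in that class lies on chromosome 13 from 120277001 to 120278000 (mm9), with 101 CpGs, 947 of 1404 Tet1-null reads and 324 of 537 WT reads methylated. It is also the 1 retained window of outstanding depth, and it covers the start of Tmem267.

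All autosomes held retained windows, at uneven shares. Chromosome 12 had the highest, 69 of 16405 tested windows (0.421%, Wilson 95% interval 0.333 to 0.532%), followed by chromosome 4 with 82 windows (0.324%, 0.261 to 0.402%) and chromosome 14 with 44 (0.304%, 0.227 to 0.408%). The lowest shares were on chromosome 19 with 10 windows (0.0894%, 0.0486 to 0.164%), chromosome 17 with 20 (0.118%) and chromosome 11 with 29 (0.124%). The intervals of chromosome 12 did not overlap those of chromosomes 11, 17 and 19, while the order of chromosomes 4, 14 and 1 was within counting error. Summed by chromosome, levels inside the windows ran from 57.5% to 63.3% in the Tet1-null pool and from 59% to 63.2% in the WT pool. The rule selected on these levels, so their narrow range is a description only.

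**Figure D4:**
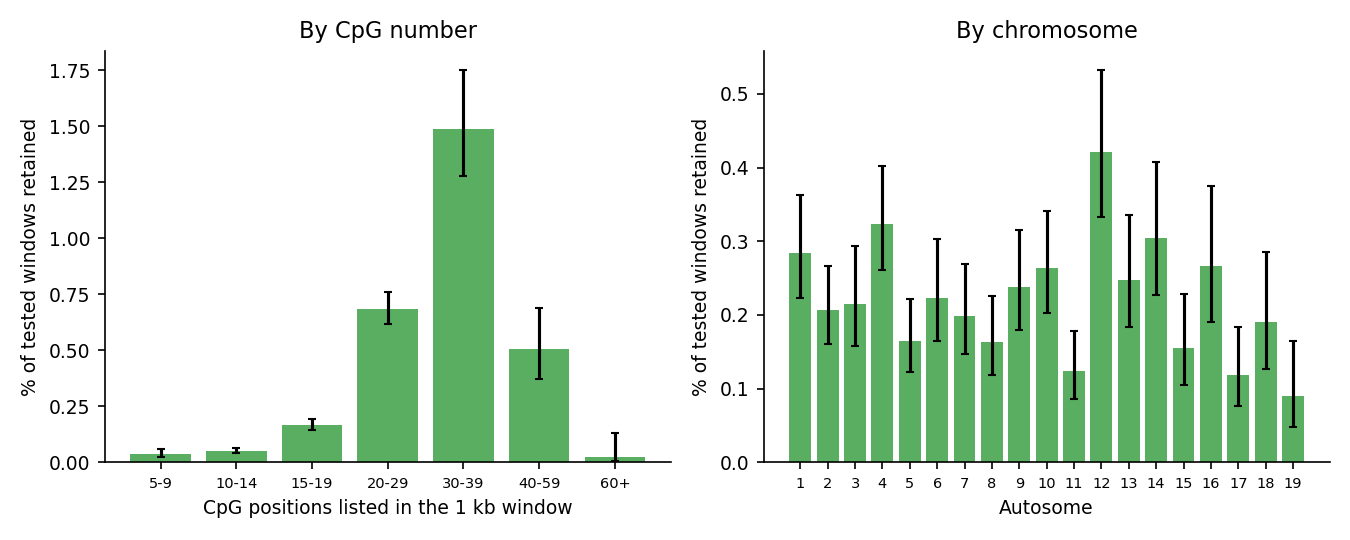
Percent of tested 1 kb windows that were retained in both pools (vertical axes), by number of CpGs listed in the window (left) and by autosome (right), with Wilson 95% intervals. The share peaks at 1.49% with 30 to 39 CpGs and falls to 0.0233% with 60 or more, and chromosome 12 is highest at 0.421%.

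Most retained windows had no retained window beside them, though few of their neighbours could be tested. Of the adjacent 1 kb windows 20.7% were tested, against 42.6% beside windows of equal CpG number, and an untested one could not count as retained. They formed 780 runs of adjacent windows, of which 756 were single windows, 22 were pairs and 2 were runs of 3, so 50 windows (6.20%) touched another retained window. Within a wider radius they were closer together than tested windows of equal CpG number were to them. Another retained window lay within 10 kb of 131 of them (16.3%, against 0.720% for equal CpG number), within 100 kb of 25.1% (4.91%) and within 1000 kb of 59.9% (38.9%). Of 2416 blocks of 1 Mb with a tested window, 598 held a retained window and 149 held 2 or more.

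The densest block, chromosome 10 from 82000001 to 83000000 (mm9), held 8 retained windows among 336 tested, with 62.5% of 517 Tet1-null reads and 63.1% of 426 WT reads methylated in them. Between its first and last retained window lie the placed starts of D10Wsu102e and of Tdg, which encodes thymine DNA glycosylase, among others. Those of Txnrd1, a thioredoxin reductase, and Chst11, a chondroitin sulfotransferase, lie there too. The first window, from 82037001, was apart from the rest, 55.1 kb from the start of Tdg. The others lay from 82875001 to 82936000. Their nearest placed starts were those of D10Wsu102e and Gm51778, 24.8 to 64.5 kb away. On chromosome 9 from 11000001 to 12000000, 7 of only 31 tested windows (22.6%) were retained, at 60% and 62.0%, with no placed gene start between them. On chromosome 5 from 23000001 to 24000000 there were 5 of 213, at 64.1% and 66.3%. The block on chromosome 16 from 61000001 to 62000000 held 5 of 29, between the placed starts of Epha6 and Nsun3. On chromosome 4 from 61000001 to 62000000 there were 4 of 82, and all 4 held a recurring spacing pattern.

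The methylated stretch was short, at a length that depended on the bin size. It was measured in bins of 200 bp on both sides, adding bins with at least 2 reads over both pools and 50% or more of them methylated, and bridging 1 bin without reads. The median stretch was 600 bp, with quartiles of 400 and 600 bp, and 103 windows (12.8%) had a stretch of 1000 bp or more. With bins of 100 bp the median was 300 bp, and with bins of 500 bp it was 1000 bp. The longest stretch, 2400 bp on chromosome 9, took in 2 retained windows, those from 11812001 and from 11814001. Next came stretches of 1800 bp on chromosomes 2, 6, 8 and 11. Together the 794 distinct stretches covered 439 kb. Of the 1612 ends, 306 (19%) lay at bins without reads, where the stretch could be longer than measured. Median stretches were 600 bp in families 1, 2, 3 and 4, and 400 bp in families 5 and 6 and in windows of no family.

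Methylation declined over several kb outside the windows. In the first 1 kb on either side, leaving out flanks that were retained themselves, 31.9% of Tet1-null reads and 33.5% of WT reads were methylated. At 3 kb the levels were 21.5% and 20.9%, at 5 kb 15.4% and 14.1%, and at 7 kb 12.5% and 12.1%. They stood at 8.05% and 7.83% at 8 kb and at 5.90% and 5.51% at 20 kb. Beside windows of equal CpG number the levels were 3.96% and 3.42% at 1 kb and 3.57% and 2.86% at 20 kb, so the surroundings of retained windows remained higher over the whole distance measured. The sides were often unequal. Among 650 retained windows with 5 or more reads in the next 1 kb on both sides, 25 had both sides at 50% or more, 199 had 1 side and 426 had neither, and in 225 (34.6%) the lower side was under 10%.

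Summed over the near flanks the pools hardly differed, while single distances went either way. From 1 to 5 kb, 22.6% of reads were methylated in each pool, a difference of -0.0491 points (-0.394 to 0.295), where flanks of windows of equal CpG number had a Tet1-null level 0.629 points higher. Within this range the difference was -1.54 points at 1 kb (-2.34 to -0.736) and -0.939 at 4 kb (-1.66 to -0.220). At 5 kb it was 1.35 points (0.669 to 2.01), and at 2 and 3 kb the intervals included 0. From 6 to 10 kb the levels were 9.58% in the Tet1-null pool and 9.36% in the WT pool (0.220 points, -0.0291 to 0.469). From 11 to 20 kb they were 6.32% and 5.95%, a difference of 0.374 points (0.229 to 0.517), against 0.686 points for equal CpG number. Reads can span a window's edge, so the first flank is not fully separate from the window.

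The flanks also held more gaps without any listed CpG. At 3 kb, 9.06% of flank windows had none, against 0.820% beside windows of equal CpG number, and the share was 4.40% against 1.16% at 20 kb. A gap of at least 2 kb lay within 10 kb of 19% of retained windows, against 2.32% for equal CpG number, and a gap of at least 4 kb within 10 kb of 4.34% against 0.616%. Such gaps were common around family 5 (61.5% of its windows had 2 kb or more) and family 1 (34.4%), and rare around family 2 (8.93%) and family 3 (2.70%). Windows of no family had 12.6%. A gap can be sequence without CpGs or sequence to which no read was assigned, which cannot be told apart in these tables.

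**Figure D5:**
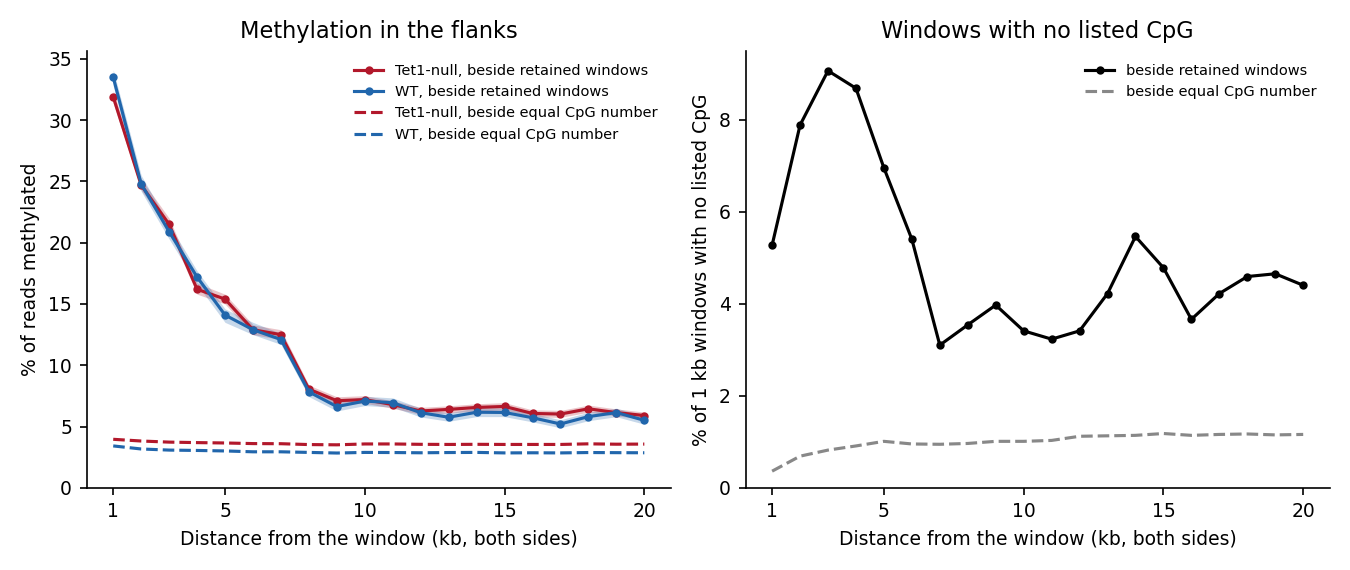
Left, percent of reads methylated by distance from the window in kb, for Tet1-null and WT pools beside retained windows (points, with Wilson 95% bands) and beside windows of equal CpG number (dashed). Right, percent of 1 kb flank windows with no listed CpG. Levels beside retained windows are 31.9% and 33.5% at 1 kb and 5.90% and 5.51% at 20 kb, and empty windows peak at 9.06% at 3 kb.

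Retained windows lay away from the gene starts that could be placed. RefSeq promoters with at least 8 CpGs were matched to the tables by their own CpG spacing, and 11078 of 15382 were placed at a single position that fitted their neighbours. The RefSeq set held 31396 autosomal promoters, so distances to starts with fewer CpGs or without a placement were not measured. Of promoters with at least 8 CpGs, 72.2% matched a single position. Among autosomal promoters with a family pattern, those of Slc24a3, Gm14149, Gm36816, Gm33671, A230004M16Rik, Gm29709, Gm46490 and Gm41479 were not placed. Starts within recurring layouts may thus be missing more often than others, which was not tested. On the 18 autosomes with placed promoters, 1 of 783 retained windows covered one (0.128%), the Tmem267 window above, against 7.56% of windows of equal CpG number. The median distance to the nearest placed start was 226 kb, against 42.1 kb, and 1.28% of retained windows lay within 5 kb of a start, against 17.7%. The 10 windows within 5 kb were near Tmem267, Gm32026 (2 windows on chromosome 19, at 50% and 73.0% in the Tet1-null pool and 56.0% and 68.6% in the WT pool), 4933401D09Rik, Napb, Cadps, AI506816 (2 windows on chromosome 5), 2210016F16Rik and Cep83. The window near Napb, which encodes a protein of vesicle fusion, was at 56.0% in the Tet1-null pool and 75% in the WT pool. That near Cadps, which encodes an exocytosis protein, was at 59.8% and 55.0%, and that near Cep83, which encodes a centriole protein, at 58.1% and 57.1%.

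Genes of the imprinted and germline lists had no retained window within 5 kb of a placed start. Of a list of 34 imprinted genes, 16 had a placed start and 0 of these had a retained window within 5 kb. The nearest retained window to a start of either list lay 8.32 kb from that of Igf2, an imprinted growth factor gene, on chromosome 7 from 149855001 to 149856000. It held 29 CpGs, with 51 of 91 Tet1-null reads (56.0%) and 35 of 50 WT reads (70%) methylated, and no spacing pattern that recurs. The tested window over the start of Igf2 itself had 0 of 28 and 2 of 28. The 13 tested start windows of imprinted genes had a median level of 1.47% in the Tet1-null pool and 1.96% in the WT pool, and single genes went either way. The Tet1-null level was furthest above the WT level at Nnat (12 of 79, against 0 of 48 in the WT pool) and Inpp5f (19 of 137 against 1 of 51). Kcnq1ot1 (13 of 65 against 3 of 98) and 1 of 2 starts of Commd1 (41 of 234 against 2 of 124) were alike. The other start of Commd1 (2 of 136 against 0 of 42), Mest (2 of 51 against 1 of 29) and Igf2r (1 of 221 against 0 of 59) were higher by less. Blcap, Zim1, Peg3, Igf2 and Dlk1 had the lower level in the Tet1-null pool. Gnas had no methylated read in either pool. The highest level was Peg3, an imprinted zinc finger gene, with 42 of 127 reads (33.1%) in the Tet1-null pool and 15 of 39 (38.5%) in the WT pool. Of 22 germline and meiosis genes, 14 had a placed start, 0 lay within 5 kb of a retained window (the nearest, Mov10l1 of the piRNA pathway, was 54.1 kb from one), and the 11 tested start windows had medians of 7.69% and 3.03%. Mael, also of the piRNA pathway, which silences transposons, was highest in this list with 17 of 85 reads (20%) and 6 of 23 (26.1%). Among these germline start windows, Mael and Syce1 had the lower level in the Tet1-null pool. Rec8 had no methylated read in either pool, and the others had the higher level in the Tet1-null pool. The other genes of both lists, and a further list of 3 genes named elsewhere as keeping methylation, could not be placed.

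Single retained windows show the range. The highest levels among windows with 50 or more reads in each pool were on chromosome 8 from 93947001 to 93948000, a family 6 window 110.1 kb from the start of Fto, with 67 of 85 Tet1-null reads (78.8%) and 45 of 50 WT reads (90%) methylated. A family 3 window on chromosome 9 from 4854001 to 4855000 had 48 of 61 (78.7%) and 41 of 57 (71.9%), and a family 10 window on chromosome 1 from 98865001 to 98866000 had 42 of 59 (71.2%) and 48 of 57 (84.2%). A family 4 window on chromosome 1 from 17947001 to 17948000 had 88 of 126 (69.8%) and 49 of 62 (79.0%). Each of these 4 was above 60% in both pools.

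Other windows stood out by size. The 2 runs of 3 windows were on chromosome 1 from 27786001 to 27789000, with 118 of 201 Tet1-null reads (58.7%) and 76 of 106 WT reads (71.7%), and on chromosome 9 from 11814001 to 11817000, with 64 of 111 (57.7%) and 60 of 102 (58.8%). On chromosome 8 a pair of windows from 125952001 to 125954000 and a single one from 125957001 to 125958000 lay 9.36 to 14.4 kb from the placed start of Def8. The single one had 59 CpGs, with 107 of 166 Tet1-null reads (64.5%) and 105 of 153 WT reads (68.6%), and its most frequent spacing pattern had 3 places. It is among the minority of retained windows without a recurring layout, 173 in all, which had a median of 19 CpGs and levels of 61.7% in the Tet1-null pool and 60.8% in the WT pool. The most reads outside the deep window were on chromosome 3 from 3693001 to 3694000, with 153 of 287 (53.3%) and 45 of 78 (57.7%), in a family 8 layout.

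The threshold passes through a continuum. Just inside it, the window on chromosome 14 from 121788001 to 121789000, of family 1, had 56 of 112 Tet1-null reads (50%) and 33 of 59 WT reads (55.9%), and that on chromosome 15 from 14782001 to 14783000 had 56 of 109 (51.4%) and 26 of 52 (50%). Just outside it, the window on chromosome 1 from 24864001 to 24865000 had 62 of 125 (49.6%) and 25 of 47 (53.2%), and that on chromosome 1 from 191278001 to 191279000 had 57 of 115 (49.6%) and 24 of 48 (50%). At exactly 50% in at least 1 pool stood 126 of the retained windows. When reads of the deeper pool were thinned to the depth of the shallower one, 731 of the 806 were still at 50% or more in both.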

How the data were processed

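The authors deposited 1 table per genotype, with its libraries pooled, that gives for each CpG site a methylation level as a fraction of reads and the count of reads. Coordinates are of mm9 and bedtools was among the tools, per the submitters' processing notes. A read filter that the authors deposited discards a read when more than 1.2% of its bases are C outside CpG, so poorly converted reads, and any truly methylated outside CpG, are lost. The sources used here do not give the aligner or how it treated duplicates and reads from repeated sequence, which bear on recurring layouts most. Positions were read as BED starts and are printed counted from 1.

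Methylated reads per site were the product of fraction and count, and were summed per window in Python 3.11.15 (pandas 2.3.3, numpy 2.4.6, scipy 1.17.1, and matplotlib 3.10.9 for figures). CpG number is the positions listed in either table, which undercounts positions without reads. For equal CpG number, tested windows not retained in both pools were weighted to the CpG numbers of retained ones. Fisher's exact test was used since the tables hold counts but no replicates. It was tried on simulated reads drawn independently, so its behaviour with PCR copies and sites that share reads was not tested. Patterns were joined into a family when they shared 50% or more of the smaller set of retained windows. Family levels sum the sites inside each place, and places closer than 500 bases were joined.

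Promoters came from the RefSeq tables of GRCm38.p6 and were accepted where 70% or more of at least 8 CpGs were listed at the right spacing with no other listed site between, at 1 position of the chromosome. Of 11099 so placed, 21 were dropped because their offset between builds differed from that of their neighbours by over 10 kb. No coordinates were converted. Windows were named, in part, from the 5 longest runs and stretches, the 5 with most CpGs, most reads or highest levels at 50 or more reads in each pool, the 5 densest 1 Mb blocks and the 3 nearest the threshold on each side. Genes and promoters were named after their values were seen, outside that rule. The windows, lists and tests were chosen with earlier results of these data known.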

Additional observations from a re-analysis of the deposited data

How the results depend on the processing

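No paired analysis was possible because each table pools all libraries of a genotype, and leaving out single libraries was not run for the same reason. Of 64 alternative values, 25 stayed within the interval of the reported value (or 1.5 times a count), 39 moved, and none changed the sign of a difference. The alternatives on patterns, on the single deep window and on family places were added after seeing the data. The cause of a move was not tested unless the setting itself shows it.

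The number and share of retained windows and the share adjacent to another were 1962, 0.539% and 11.5% at a level of 40%, 203, 0.0558% and 2.96% at 60%, and 16, 0.00440% and 0% at 75%. With 40 reads in each pool they were 194, 0.460% and 2.06%. The share was 0.304% with 10 sites in both pools and 0.608% in windows of 500 bp, and the adjacent share 4.24% with sites weighted equally and 4.67% with reads thinned to equal depth. The excess of the median CpG number over tested windows, 10, was 9 at 40%, at 60% and with thinned reads, 5.50 at 75%, 8 with 10 sites and 5 with 40 reads. The median stretch was 300 bp with bins of 100 bp, 1000 bp with bins of 500 bp, 400 bp without bridging and 800 bp with bins at 30% or more. Flanks of 1 to 5 kb were at 24.9% in the Tet1-null pool and 25.3% in the WT pool with retained windows kept in, and those of all other tested windows, without regard to CpG number, at 3.71% and 3.06%.

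Windows called between the pools numbered 575, 204 with thinned reads and 0 of 319952 with 1 site per 100 bp, a setting that left 133 retained windows testable. Recurring patterns were held by 60.2% of retained windows and 5.01% of windows of equal CpG number at 20 or more places, by 87.6% and 19.5% with 4 spacings, and by 70.8% and 5.65% with 6. Family places more than 10 kb from a retained window were at 43.7% in the Tet1-null pool. Depth limits all levels of single windows, since 98 retained windows had 50 or more reads in each pool.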
